A study of Mus musculus with 10 samples.

Results

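The genes described here encode 10 factors that bind, cut, protect or degrade the RNA made inside mitochondria. They are Lrpprc, Supv3l1, Pnpt1, Fastkd1, Fastkd2, Fastkd3, Fastkd5, Tbrg4, Ptcd1 and Ptcd3, the last a part of the mitochondrial ribosome. They were chosen by name, as the probes of the array table that carry one of these gene symbols. Of the 10 symbols, 8 were on the array, with 12 of its 25697 probes. After a filter on dim probes, 9 probes of 6 genes were tested, among 9365 tested genes in all. The symbols Fastkd3 and Ptcd1 did not occur. A probe under the older symbol 2310010B21Rik, a RefSeq synonym of Fastkd3 alone, is given beside the others and not counted with them, and Ptcd1 is not analysed here.

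RNA was taken from the ileum, the distal small intestine. The label of 5 mice is iPGC-1β and that of the other 5, which were their littermates, is wild-type. The strain of all 10 mice was FVB/N and their age 3 to 4 months. Each Illumina array was taken to hold RNA of 1 mouse, since no pooling is named. The question was how gene expression in the ileum of iPGC-1β mice differs from that of wild-type mice. PGC-1β is a coactivator of nuclear transcription known for raising genes of mitochondrial respiration. In the literature iPGC-1β names a transgenic line with raised PGC-1β in the gut epithelium. The sources used here give neither its construct nor its promoter.

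Mitochondrial DNA is transcribed as long precursors from which mRNAs, rRNAs and tRNAs are cut out. After that step, the level of each mature RNA depends on proteins made from nuclear genes: RNA-binding proteins of the pentatricopeptide repeat (PPR) type, the FASTK family, a poly(A) polymerase, and a degradation complex of a helicase and an exoribonuclease. The small intestinal epithelium is rich in mitochondria, and its enterocytes use oxidative metabolism for absorption. The array table was searched for the symbols of the 13 protein-coding genes of mitochondrial DNA and held 0 of them, so the mitochondrial transcripts themselves are not analysed here.

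Each array had between 12370 and 12771 probes above background, at a detection p under 0.05. Intensities are on the log2 scale after background correction and quantile normalization, changes are iPGC-1β minus wild-type, and called means an adjusted p under 0.05 in limma, with Benjamini-Hochberg adjustment over all 9365 genes. By that rule 9.88% of the tested genes rose in the iPGC-1β group and 7.41% fell. The median log2 change of all tested genes was -0.05, and 44.2% of them lay above 0. The probe of Ppargc1b, which encodes PGC-1β, fell, from a mean log2 intensity of 8.32 to 7.70 (limma's adjusted p = 0.0452). The place of that probe in the gene is unknown here. A probe that does not read the transgene cannot check the labels, so all directions rest on the arrays as labelled.

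The tissue label was checked against markers. Fabp6, the ileal bile acid binding protein, read 14.55 and 14.64 in the wild-type and iPGC-1β groups and was above background on all 10 arrays, as was Vil1, the microvillus protein villin. Vil1 read 13.66 and 13.22 in the 2 groups and was not called (limma's adjusted p = 0.101). Slc10a2, the ileal bile acid transporter, was above background on no array, and neither were the enterocyte markers Fabp1 and Fabp2. The mean of the 18 tested enterocyte markers, of 23 listed, ran from 11.05 to 11.86 on the wild-type arrays and from 10.70 to 11.36 on the iPGC-1β arrays, with 6 markers called lower and 0 called higher. Of the 6 tested ileum markers 2 were called lower and 0 higher, with list means of 12.57 to 12.98 against 12.07 to 12.52. Fgf15, 1 of the 2, read 7.61 in the wild-type and 5.82 in the iPGC-1β group (limma's adjusted p = 0.00587). In whole tissue, fewer cells of a type and less RNA per cell cannot be told apart. Among crypt and secretory markers, 1 of 9 and 1 of 8 were called lower. Over all tested genes 7.41% were called lower. None of the 9 smooth muscle, 5 T cell, 5 B cell and 8 macrophage markers tested was called. The T cell marker mean of iPGC-1β replicate 3 was 5.55, below the 7.50 to 7.92 of the other iPGC-1β arrays. The B cell marker mean of wild-type replicate 5 was 8.64, above the 6.73 to 7.21 of the other wild-type arrays.

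Promoter sequences are shown for 3 of the factors, because they are the one with the largest change, the one with the most motif matches and the one tested gene without a call. They are RefSeq sequences on the mouse build GRCm38.p6, from 250 bases before to 50 bases after the first base of the gene, each on the minus strand of the build and printed in the direction of transcription. Lrpprc lies at chr17:84790737-84791036, Tbrg4 at chr11:6626018-6626317 and Fastkd5 at chr2:130629953-130630252. Capitals mark a match to one of 4 short motifs, searched on both strands. These were AAGGTCA, the half-site of estrogen-related receptors (ERR), GCGCATGC for NRF1, CCGGAAG for ETS factors and AAGATGGC for YY1.
Lrpprc: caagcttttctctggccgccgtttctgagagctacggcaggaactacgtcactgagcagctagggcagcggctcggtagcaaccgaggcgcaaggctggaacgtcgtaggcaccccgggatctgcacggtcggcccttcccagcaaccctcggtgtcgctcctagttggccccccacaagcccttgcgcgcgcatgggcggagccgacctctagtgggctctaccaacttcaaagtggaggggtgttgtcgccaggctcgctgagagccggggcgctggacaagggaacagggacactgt
Tbrg4: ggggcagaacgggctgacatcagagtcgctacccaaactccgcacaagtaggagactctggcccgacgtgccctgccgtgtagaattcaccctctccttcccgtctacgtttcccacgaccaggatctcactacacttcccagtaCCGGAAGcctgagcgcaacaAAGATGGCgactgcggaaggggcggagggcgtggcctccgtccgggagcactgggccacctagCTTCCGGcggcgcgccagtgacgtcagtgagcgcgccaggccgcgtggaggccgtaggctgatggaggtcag
Fastkd5: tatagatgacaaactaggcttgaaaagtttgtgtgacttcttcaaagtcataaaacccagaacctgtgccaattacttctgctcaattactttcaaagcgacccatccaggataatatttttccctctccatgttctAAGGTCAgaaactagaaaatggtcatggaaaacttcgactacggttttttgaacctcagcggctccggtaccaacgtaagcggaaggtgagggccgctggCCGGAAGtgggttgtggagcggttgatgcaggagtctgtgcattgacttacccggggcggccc

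In the Lrpprc window none of the 4 motifs matched, which says only that these letters are not in these 300 bases. The Tbrg4 window held the ETS motif starting 105 bases before the gene's first base and again, on the other strand, 22 bases before it, with the YY1 motif between them at 85 bases before it. In the Fastkd5 window the ERR half-site began 113 bases and the ETS motif 13 bases before the first base. No matches overlapped. The ERR half-site was thus found in 1 of the 10 promoters, that of the gene with no call, and it occurs in 4.08% of the 21263 promoters of protein-coding genes. The ETS motif was found in 2 of the 10 (11.6% of protein-coding promoters), the YY1 motif in 2 of the 10, Tbrg4 and Ptcd3 (3.05%), and the NRF1 motif in 0 of the 10 (3.52%). The GC content of the 10 promoters ran from 37.0% for Fastkd1 to 70.7% for Fastkd3, against a median of 56.3% over protein-coding promoters.

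Of the 6 factors tested, 5 rose in the iPGC-1β ileum and 0 fell. Lrpprc, Fastkd1, Supv3l1, Tbrg4 and Ptcd3 were called higher, and Fastkd5 did not pass the test. In each of the 5, all iPGC-1β arrays lay above all wild-type arrays, a separation found for 8.66% of all tested genes. The log2 changes of the 6 genes ran from 0.26 to 1.57 with a median of 1.23, beside the median of -0.05 over all tested genes. Counted by probe, 8 of the 9 kept probes were called higher, beside 9.67% of all 12349 kept probes. These 8 include 3 probes of Lrpprc and 2 of Tbrg4, so they are repeat readings of the same 5 genes. The genes were named with earlier results of these data known, so the count describes them and supports nothing further.

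**Figure D1:**
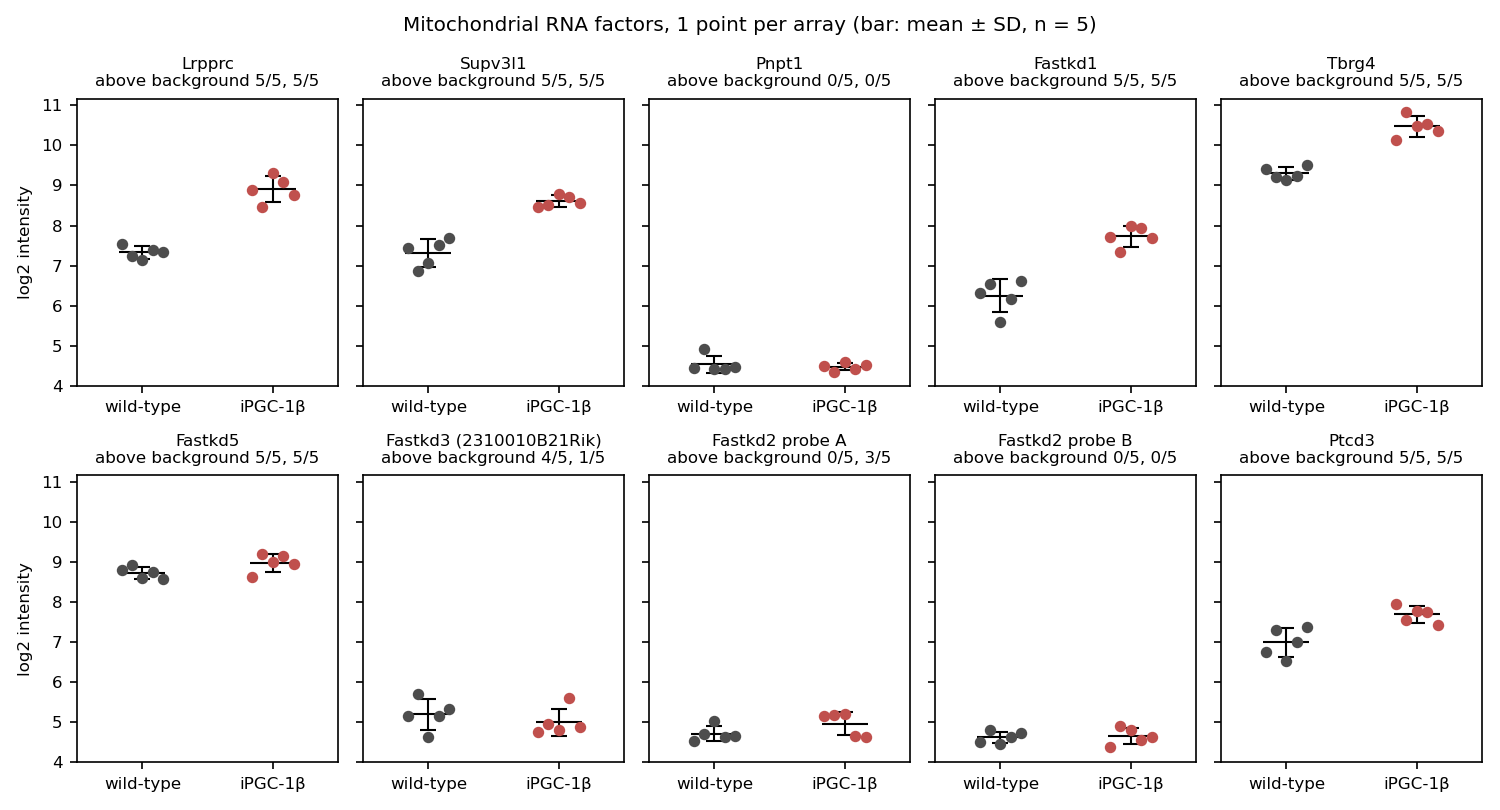
Log2 intensity of each factor on the 5 wild-type and 5 iPGC-1β arrays, 1 point per array, with bars for the mean ± SD. The iPGC-1β points of Lrpprc, Supv3l1, Fastkd1, Tbrg4 and Ptcd3 all lie above their wild-type points. Those of Fastkd5 overlap, and Pnpt1 and both Fastkd2 probes (A is ILMN_2817960, B is ILMN_2676388) lie near the floor of the scale.

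Lrpprc encodes a PPR protein that, with its partner SLIRP, binds mitochondrial mRNAs, protects them from decay and promotes their polyadenylation. It had the largest change of the 6 factors. Its log2 intensities were 7.55, 7.23, 7.14, 7.40 and 7.33 on wild-type replicates 1 to 5. On iPGC-1β replicates 1 to 5 they were 8.89, 8.47, 9.32, 9.08 and 8.76. The lowest iPGC-1β array thus lay 0.92 above the highest wild-type array. The means were 7.33 ± 0.16 and 8.90 ± 0.32 (SD, n = 5 each), and Lrpprc rose by 1.57 ± 0.16 (SE) on the log2 scale, or 2.98-fold, with limma's adjusted p = 5.15e-05. The exact two-sided permutation p was 0.00794, the smallest that 5 arrays against 5 allow, for Lrpprc and for each of the other 4 called factors. Of the 925 genes called higher, 47 had a larger log2 change than Lrpprc.

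The array holds 3 probes of Lrpprc, whose places in the gene are unknown here and which were not compared in level. The chosen probe, ILMN_2845214, rose by 1.57 and a second, ILMN_2845208, by 1.57 ± 0.16 (SE), from 6.93 ± 0.25 to 8.49 ± 0.24 (SD, n = 5 each). The third and dimmest, ILMN_2683718, rose by 1.47 ± 0.24 (SE), from 5.63 ± 0.44 to 7.10 ± 0.44 (SD, n = 5 each). It was above background on 4 of 5 wild-type arrays. In limma's fit over all 12349 kept probes the adjusted p was 5.94e-05 for the second and 0.00119 for the third. Without background correction the changes of the 3 probes were 1.13, 1.03 and 0.64, so the value of the dimmest rests most on that step.

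**Figure D2:**
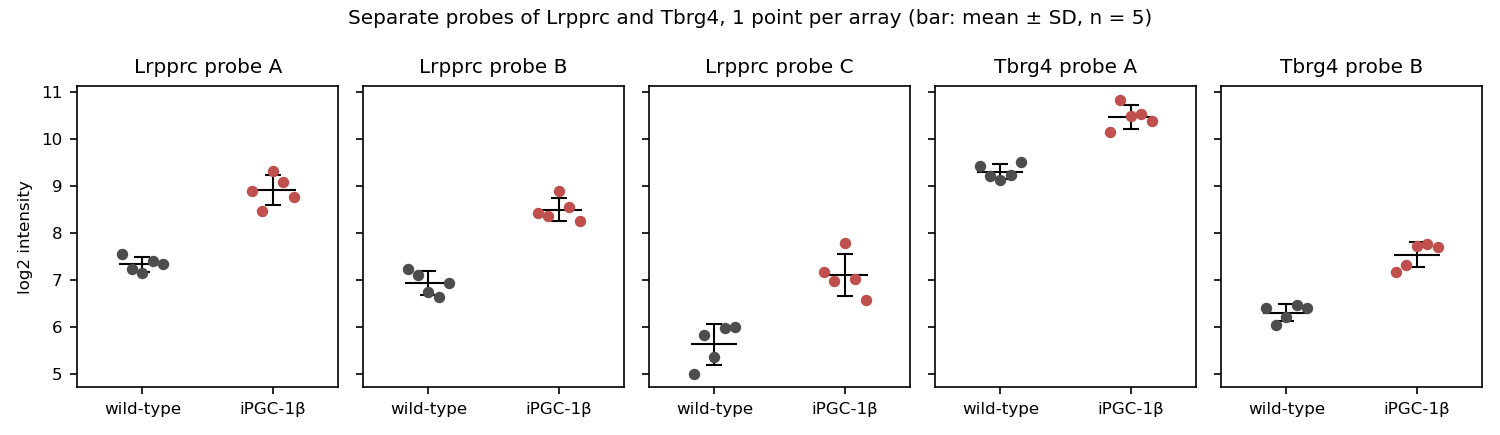
Log2 intensity of the 3 Lrpprc probes (A is ILMN_2845214, B is ILMN_2845208, C is ILMN_2683718) and the 2 Tbrg4 probes (A is ILMN_2589893, B is ILMN_2670230), 1 point per array, with bars for the mean ± SD (n = 5). In every panel all iPGC-1β arrays lie above all wild-type arrays, and the changes lie between 1.17 and 1.57.

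Slirp, on the array under its older symbol 1810035L17Rik, encodes the small RNA-binding protein that forms a complex with LRPPRC. Its change was 0.39 ± 0.24 (SE) and was not called (limma's adjusted p = 0.296). It read 10.13, 10.28, 10.06, 10.16 and 10.84 on the wild-type arrays and 11.42, 10.44, 9.97, 10.82 and 10.74 on the iPGC-1β arrays, so the groups overlapped and iPGC-1β replicate 3 was the lowest of all 10. That array was the highest for Lrpprc. The difference between the 2 genes within an array changed by 1.19 ± 0.35 (SE) between the groups, with all iPGC-1β arrays above all wild-type arrays (exact permutation p = 0.00794, or 0.0143 adjusted over the 9 gene pairs compared). The nearest arrays were replicate 1 of each group, at -2.58 in the wild-type and -2.53 in the iPGC-1β group. Without iPGC-1β replicate 3 the difference was 0.91, and without background correction it was 0.77 (adjusted exact permutation p = 0.0476). In the latter case the unadjusted exact permutation p was 0.0317, above the smallest possible, so the groups were no longer fully separated. This pair was set with both genes' values known, so its p-values describe the difference and are no independent test of it. Lrpprc and Slirp changed unequally on these arrays, which does not show that Slirp did not change.

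Supv3l1 encodes the mitochondrial RNA helicase SUV3, which unwinds RNA for degradation by its partner polynucleotide phosphorylase. The wild-type arrays read 7.45, 6.86, 7.06, 7.52 and 7.69 in log2 intensity. The iPGC-1β arrays read 8.45, 8.51, 8.79, 8.72 and 8.57. The groups lay 0.76 apart at their nearest, and the iPGC-1β arrays were the tighter group. From 7.32 ± 0.34 to 8.61 ± 0.14 (SD, n = 5 each), Supv3l1 changed by 1.29 ± 0.17 (SE) on the log2 scale, or 2.44-fold, with limma's adjusted p = 2.18e-04. Without background correction its change was 0.89.

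Pnpt1 encodes polynucleotide phosphorylase itself, the exoribonuclease of the same complex. Its only probe was above background on 0 of 5 arrays in either group, with uncorrected intensities between 108.2 and 150.4, so the array gives no comparison for it. Its log2 values of 4.53 ± 0.21 and 4.48 ± 0.09 (SD, n = 5 each) lie near the floor of the scale. Grsf1 encodes a protein of mitochondrial RNA granules that in human cells helps the complex to degrade RNA with guanine-rich folds. It rose by 0.50 ± 0.13 (SE), from 9.30 ± 0.13 to 9.81 ± 0.17 (SD, n = 5 each), with limma's adjusted p = 0.0164. With median centring in place of quantile normalization Grsf1 lost its call, at 0.45 with an adjusted p of 0.0576. Supv3l1 rose by 0.79 ± 0.20 (SE) more than Grsf1 within arrays (exact permutation p = 0.00794, adjusted 0.0143), and by 0.45 without background correction (adjusted exact permutation p = 0.0429). That pair, too, was set with both genes' values known, so these p-values are no independent test.

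The FASTK family has 6 members, proteins that act on mitochondrial RNA and share a set of domains, and each acts on its own set of transcripts. Of the 5 that were tested, Fastk, Fastkd1 and Tbrg4 rose, Fastkd5 and Fastkd3 were not called, and none fell. Among all tested genes 9.88% rose. Fastkd2 had no kept probe. Fastk, the founding member, whose mitochondrial form protects the ND6 mRNA, belongs to the wider list and not to the 10 factors. It rose by 1.41 ± 0.12 (SE), from 8.29 ± 0.10 to 9.70 ± 0.15 (SD, n = 5 each), or 2.65-fold, with limma's adjusted p = 2.53e-05.

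Fastkd1 encodes a family member whose loss in human cells raises the ND3 mRNA. It read 6.32, 6.55, 5.59, 6.16 and 6.62 on the wild-type arrays. On the iPGC-1β arrays it read 7.72, 7.33, 7.99, 7.93 and 7.69. Wild-type replicate 3 was the lowest and the groups lay 0.71 apart. The means of 6.25 ± 0.41 and 7.73 ± 0.26 (SD, n = 5 each) give a log2 change of 1.48 ± 0.20 (SE), or 2.80-fold, with limma's adjusted p = 2.92e-04. Without background correction the change was 0.79, with the call kept. Leaving out wild-type replicate 3 gave 1.32 (adjusted p = 4.68e-04).

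Tbrg4 encodes FASTKD4, which keeps the level of several mitochondrial mRNAs in human cells. It read 9.42, 9.21, 9.13, 9.24 and 9.50 on the wild-type arrays. It read 10.14, 10.83, 10.49, 10.53 and 10.37 on the iPGC-1β arrays. The groups lay 0.64 apart, with iPGC-1β replicate 1 the lowest of its group. Tbrg4 rose by 1.17 ± 0.15 (SE), from 9.30 ± 0.15 to 10.47 ± 0.25 (SD, n = 5 each), or 2.25-fold, with limma's adjusted p = 1.75e-04. Its second probe, ILMN_2670230, rose by 1.23 ± 0.16 (SE), from 6.30 ± 0.18 to 7.53 ± 0.27 (SD, n = 5 each; adjusted p = 2.00e-04 over all kept probes). Without background correction the 2 probes changed by 1.05 and 0.65.

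Fastkd5 encodes the member needed to cut mitochondrial precursors at ends that carry no tRNA. Its wild-type arrays read 8.79, 8.93, 8.59, 8.74 and 8.56. Its iPGC-1β arrays read 8.63, 9.19, 8.99, 9.15 and 8.94. The groups overlapped: iPGC-1β replicate 1 lay below 3 of the 5 wild-type arrays, while the other 4 iPGC-1β arrays lay above all 5. The means were 8.72 ± 0.15 and 8.98 ± 0.22 (SD, n = 5 each), which differ by 0.26 ± 0.14 (SE), with an adjusted p of 0.229 in limma and an exact permutation p of 0.0635. Fastkd5 was not called under any of the 22 alternative settings tried, where its adjusted p ran from 0.0877 to 0.462.

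The 2 remaining family members were dim. Fastkd3 acts in human cells on the processing and translation of some mitochondrial mRNAs. Its probe under the older symbol was above background on 4 of 5 wild-type and 1 of 5 iPGC-1β arrays. It read 5.20 ± 0.39 and 5.00 ± 0.34 (SD, n = 5 each), and differed by -0.20 ± 0.21 (SE), which was not called (limma's adjusted p = 0.563). Fastkd2 binds the large rRNA of the mitochondrial ribosome. Its probe ILMN_2817960 was above background on 0 wild-type and 3 iPGC-1β arrays, at 4.72 ± 0.19 and 4.97 ± 0.29 (SD, n = 5 each), and the floor leaves no fold to give. Its other probe, ILMN_2676388, was above background on no array.

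Within arrays, Fastk, Fastkd1 and Tbrg4 rose more than Fastkd5. All 6 pairs of Fastk, Fastkd1, Tbrg4 and Fastkd5 were compared, together with the 3 partner pairs, and the 9 exact two-sided permutation tests were adjusted together. The pairs were set with the genes' values known, and those with the dim Fastkd3 were left out after their values were seen. These p-values therefore describe the differences and are no independent test of them. Of the 6 family pairs 4 differed past an adjusted p of 0.05. Fastkd1 rose by 1.23 ± 0.24, Fastk by 1.15 ± 0.07 and Tbrg4 by 0.91 ± 0.12 (SE) more than Fastkd5, each with all iPGC-1β arrays above all wild-type arrays (exact permutation p = 0.00794, the smallest possible, adjusted 0.0143). Without background correction these 3 differences were 0.58, 0.95 and 0.84 (adjusted exact p between 0.0238 and 0.0357). With it, the nearest arrays of Fastkd1 minus Fastkd5 were wild-type replicate 5 at -1.94 and iPGC-1β replicate 2 at -1.85. Without background correction that pair's unadjusted exact p was 0.0159, above the smallest possible, so its groups were no longer fully separated. Among the 3 genes that rose, calls and signs depended on the background step. Fastk minus Fastkd1 was -0.08 (adjusted exact p = 0.603) with it and 0.36 (adjusted exact p = 0.0238) without it. Fastk minus Tbrg4 was 0.24 (adjusted exact p = 0.0476) with it and 0.11 (adjusted exact p = 0.214) without it. No order of change among Fastk, Fastkd1 and Tbrg4 is therefore given.

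**Figure D3:**
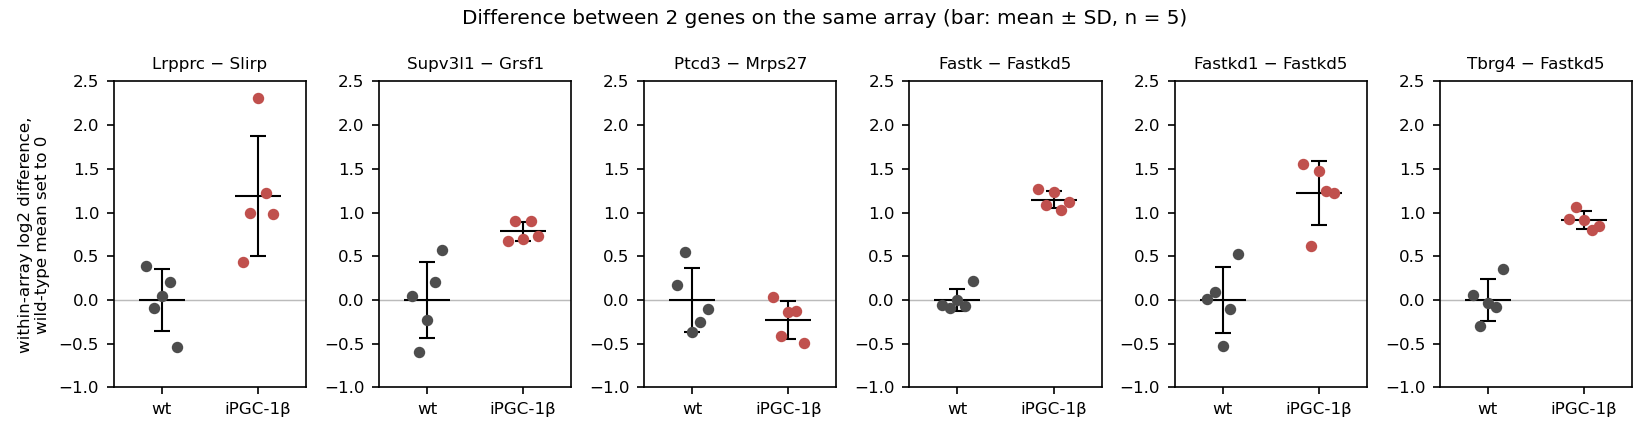
Difference in log2 intensity between 2 genes on the same array, with the wild-type mean of each pair set to 0, for wild-type (wt) and iPGC-1β arrays, with bars for the mean ± SD (n = 5). Lrpprc minus Slirp, Supv3l1 minus Grsf1 and the 3 differences against Fastkd5 are higher on all iPGC-1β arrays, while Ptcd3 minus Mrps27 overlaps.

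Ptcd3 encodes a PPR protein that is part of the small subunit of the mitochondrial ribosome. It read 6.76, 7.31, 6.52, 7.01 and 7.38 on the wild-type arrays. It read 7.96, 7.54, 7.78, 7.75 and 7.42 on the iPGC-1β arrays. The groups did not overlap, but only 0.045 lay between replicate 5 of the wild-type group and replicate 5 of the iPGC-1β group. From 7.00 ± 0.36 to 7.69 ± 0.21 (SD, n = 5 each), Ptcd3 rose by 0.69 ± 0.18 (SE), or 1.62-fold, with limma's adjusted p = 0.0184. Leaving out wild-type replicate 1 ended the call (0.63, adjusted p = 0.0504), as did a fit with the enterocyte marker mean as a covariate (0.48, adjusted p = 0.236), and the change was 0.41, still called, without background correction. Mrps27 encodes another PPR protein of the small subunit and rose by 0.92 ± 0.17 (SE), with limma's adjusted p = 0.00215. The within-array difference, Ptcd3 minus Mrps27, changed by -0.23 ± 0.19 (SE; exact permutation p = 0.262, adjusted 0.295).

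The arrays that were highest or lowest differed between the factors. iPGC-1β replicate 3 was the highest array for Lrpprc, Supv3l1 and Fastkd1, replicate 2 for Tbrg4 and Fastkd5, and replicate 1 for Ptcd3. Wild-type replicate 3 was the lowest array for Lrpprc, Fastkd1, Tbrg4 and Ptcd3, and it also had the lowest median raw intensity, 127.7 against 131.1 to 155.1 on the other arrays. Without it the 5 called factors kept their calls, with changes of 1.53, 1.32, 1.13 and 0.57 for Lrpprc, Fastkd1, Tbrg4 and Ptcd3 and 1.22 for Supv3l1. Without both wild-type replicate 5 and iPGC-1β replicate 3, chosen after the data were seen for their immune cell marker means, the changes of Lrpprc, Fastkd1, Supv3l1, Tbrg4 and Ptcd3 were 1.47, 1.51, 1.34, 1.22 and 0.76, all called. With the enterocyte marker mean as a covariate, the changes of Lrpprc, Fastkd1, Supv3l1 and Tbrg4 were 1.80, 1.41, 1.15 and 0.99, all called (limma's adjusted p between 9.89e-04 and 0.0118).

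**Figure D4:**
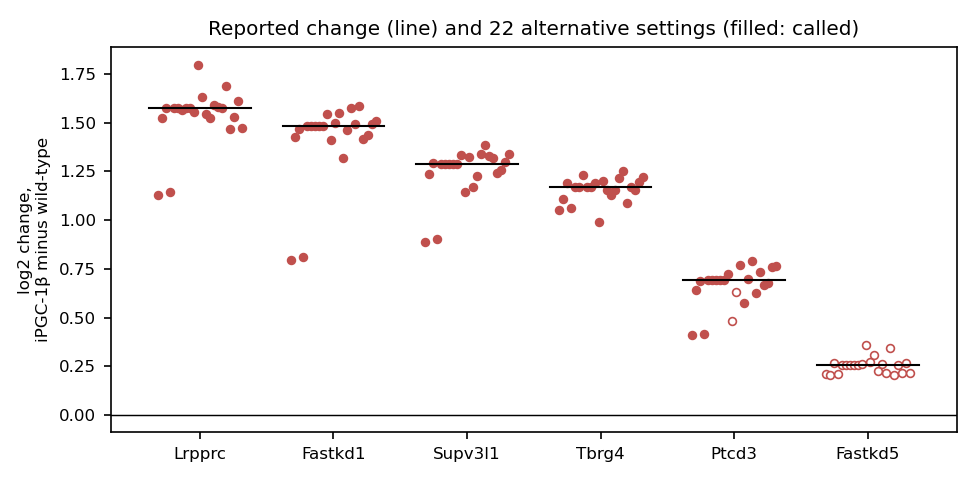
Log2 change of the 6 tested factors as reported (line) and under each of 22 alternative settings (points, filled where called at the setting's threshold). Lrpprc, Fastkd1, Supv3l1 and Tbrg4 are called under all 22, Ptcd3 under 20 and Fastkd5 under 0. The lowest points of Lrpprc, Fastkd1, Supv3l1 and Ptcd3 are the settings without background correction and with the authors' processed values.

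The other genes of mitochondrial RNA were taken from 4 lists with 53 names. Of these 46 were on the array and 40 were tested: 14 (35%) rose, beside 9.88% of all tested genes, 0 fell and 26 were not called. One of the 14, Taco1, passed the filter on dim probes only through its iPGC-1β arrays, and was thus bound to be higher there. Without it 13 of 39 (33.3%) rose. Either count includes Nt5m, which encodes an enzyme that acts on nucleotides and not on RNA. The median log2 change of the 40 was 0.33, against 1.23 for the 6 factors and -0.05 for all tested genes, and 36 of the 40 lay above 0. The 6 with no kept probe were Lactb2, Trmt5, Nsun3, Mrm2, Mettl15 and Ngrn. With the enterocyte covariate 7 of the 14 kept their call. The 7 that lost it were Trub2 at 0.55, Trmu at 0.76, Mrps27 at 0.64, Eral1 at 0.65, Taco1 at 0.76, Mtres1 at 0.58 and Tefm at 0.60 (limma's adjusted p between 0.0669 and 0.129). The changes of Trub2 and Trmu were larger there than without the covariate, and those of the other 5 were smaller.

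Partners and RNA turnover was the list with the most calls, 7 of 14 tested, with a median of 0.44, or 6 of 13 and 0.39 without Taco1. The share called higher over all tested genes was 9.88%. Besides Fastk and Grsf1 these were Mtpap, Tefm, Mtres1, Nt5m and Taco1. Mtpap, under the array symbol Papd1, is the mitochondrial poly(A) polymerase and rose by 0.87 ± 0.11 (SE; limma's adjusted p = 2.41e-04). Tefm (1110002N22Rik), the elongation factor of mitochondrial transcription, rose by 1.01 ± 0.19 (adjusted p = 0.00315). Mtres1 (1700021F05Rik), an RNA-binding protein linked to mitochondrial transcription and ribosome rescue, rose by 0.96 ± 0.17 (adjusted p = 0.00213). Nt5m, a mitochondrial deoxyribonucleotidase that acts on nucleotides and not on RNA, rose by 1.20 ± 0.12 (adjusted p = 3.98e-05). Taco1 (Ccdc44), an activator of translation of the COX1 mRNA, was above background on 0 wild-type and 5 iPGC-1β arrays. On the background-corrected scale it was at least 1.63-fold higher on the latter, set against the higher of the lowest detected signal and the probe's own on each wild-type array. That bound holds for this scale only: without background correction the log2 change was 0.28, which is smaller. Rexo2, an oligoribonuclease, lay at -0.16 ± 0.19 (adjusted p = 0.601).

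Among the genes for RNA modification 5 of 16 rose, beside 9.88% of all tested genes, with a median of 0.32. Mrm3 (Rnmtl1), a methyltransferase of the large mitochondrial rRNA, rose by 1.06 ± 0.13 (SE; limma's adjusted p = 1.49e-04), and Mettl17 (Mett11d1), a factor for assembly of the small ribosomal subunit, by 1.02 ± 0.16 (adjusted p = 9.43e-04). The tRNA thiolase Trmu rose by 0.65 ± 0.17 (adjusted p = 0.0214), the rRNA methyltransferase Nsun4 by 0.54 ± 0.15 (adjusted p = 0.0262) and the pseudouridine synthase Trub2 by 0.44 ± 0.13 (adjusted p = 0.0344). These last 3 calls were lost under several settings. With median centring Nsun4 lay at 0.49 (adjusted p = 0.0719) and Trub2 at 0.34 (adjusted p = 0.118), and with the enterocyte covariate Trmu and Trub2 had adjusted p-values of 0.0704 and 0.0669. Trmu lost its call without wild-type replicate 1 or 2 or iPGC-1β replicate 3 or 4 (0.57 to 0.62, adjusted p from 0.0509 to 0.0587). Nsun4 lost its call without wild-type replicate 3 or iPGC-1β replicate 3 or 4 (0.48 to 0.51, adjusted p from 0.0588 to 0.0669). Trub2 lost its call without any 1 of wild-type replicates 1 to 4 and iPGC-1β replicates 2 to 4 (0.36 to 0.46, adjusted p from 0.0512 to 0.0826).

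Of the 7 tested genes for rRNA assembly, Mrps27 and Eral1 rose, beside 9.88% of all tested genes, and the median was 0.30. Eral1, a chaperone of the small mitochondrial rRNA, rose by 0.72 ± 0.16 (SE; limma's adjusted p = 0.00864). The 3 tested genes for cutting of tRNA ends were not called. Hsd17b10 and Trmt10c (Rg9mtd1), subunits of the enzyme that cuts in front of tRNAs, lay at 0.33 ± 0.14 and 0.31 ± 0.18 (adjusted p = 0.119 and 0.276). Elac2, which cuts behind tRNAs, lay at -0.48 ± 0.18 (adjusted p = 0.0839), the lowest change of the 40. Elac2 was called lower without wild-type replicate 3 (-0.61, adjusted p = 0.0235) and with the enterocyte covariate (-0.83, adjusted p = 0.0362). Wild-type replicate 3 was its lowest wild-type array, at 6.72, and no other fit that left out a single array called it.

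**Figure D5:**
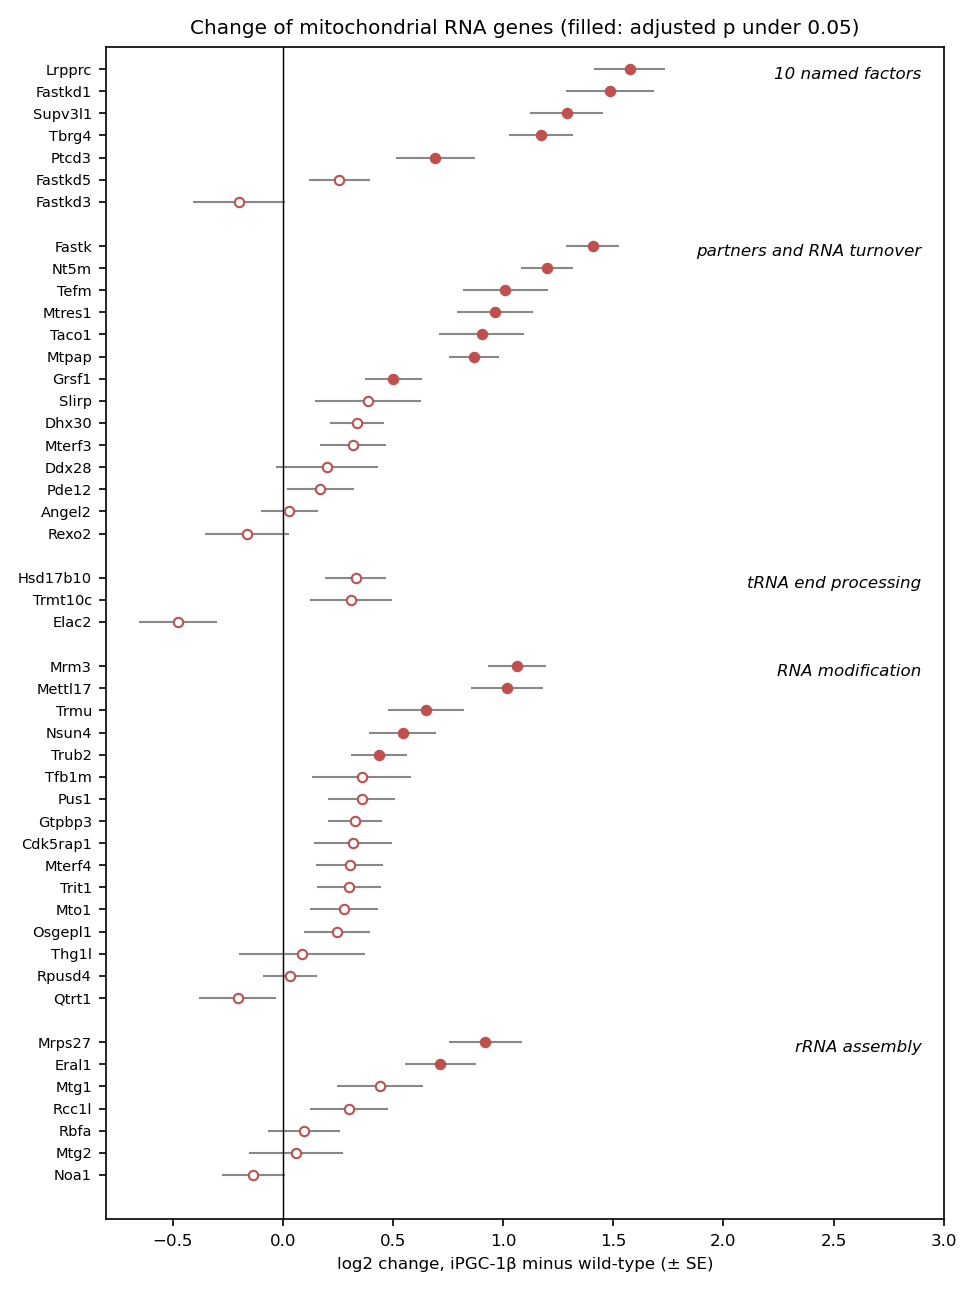
Log2 change, iPGC-1β minus wild-type, of the tested mitochondrial RNA genes by list, with bars for ± SE and filled points at an adjusted p under 0.05. The first group holds the 6 tested factors and Fastkd3 under its older symbol, and Taco1 is drawn at its fitted value although it was above background on 0 of 5 wild-type arrays. Filled points appear in every list except tRNA end processing.

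For the 3 factors with the smallest p, the 2 other tested genes with the most similar values over the 10 arrays were found by Pearson's correlation. These points share the difference between the groups, so the values describe likeness only. For Lrpprc they were Taz (r = 0.993), which encodes the cardiolipin remodelling enzyme tafazzin, and Prdx2 (r = 0.993), a peroxiredoxin. For Tbrg4 they were Lmnb2 (r = 0.983), a nuclear lamin, and Cox4i1 (r = 0.983), a subunit of cytochrome c oxidase. For Supv3l1 they were Ecsit (r = 0.992), an assembly factor of respiratory complex I, and Coq5 (r = 0.986), an enzyme of coenzyme Q synthesis. All 6 genes were themselves called higher, with log2 changes between 0.63 for Cox4i1 and 1.39 for Coq5.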

How the data were processed

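Total RNA from the ileum of 10 mice was labelled with biotin and read on Illumina arrays, per the labels' protocols, and the submitters' processing notes name GenomeStudio. The deposited table holds, per the file headers, an average signal (a linear intensity) and a detection p-value per probe and array. The authors' second deposited table holds processed intensity values, with a median of 141.7 on every array. Its scale is linear, its rank order is that of the signals, and the sources used here do not say how it was made. It served as an alternative. Every sample column was matched by its title, with 0 left unused.

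Intensities were normexp-corrected with an offset of 16, quantile-normalized and log2-transformed with neqc of limma 3.58.1 in R 4.3.3. Probes were kept at a detection p under 0.05 on at least 5 of 10 arrays, and the brightest kept probe stood for a symbol. The 2 groups were compared by limma's lmFit and eBayes without covariates, at a Benjamini-Hochberg adjusted p of 0.05 over 9365 genes. Single values were also compared by exact two-sided permutation over 252 relabelings. Older array symbols were matched through RefSeq's table of GRCm38.p6. Of 18138 symbols 14307 were current, 2906 were a synonym of 1 gene and 925 were not matched. Names come from the array's design, with the current name added where it differs.

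The factors, lists and pairs were chosen with earlier results of these data known. Named are all 10 factors with every probe, every gene of the other lists that passed the test in either direction, and the 2 genes most like each of the 3 factors with the smallest p. Slirp, Hsd17b10, Trmt10c, Elac2 and Rexo2 were named after their values were seen. Replicate numbers only name arrays. The sources used here do not say which mice shared a litter, and they name no slide or pooling. The match of each array to its own mouse is therefore assumed. The p-values measure only the spread between these samples. That spread lies between mice if the assumption holds, and may otherwise be technical. The number of arrays limits precision. Alternatives were other background, normalization, filter, threshold, probe, variance and weighting choices, the enterocyte mean as a covariate, and arrays left out. The scripts were tested on simulated data.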

Additional observations from a re-analysis of the deposited data

Results flagged for a closer look

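A probe left out of the test gave a signal on part of the arrays. The Fastkd2 probe ILMN_2817960 was above background on 3 of 5 iPGC-1β arrays and 0 of 5 wild-type arrays, with log2 values of 5.15, 5.18, 5.20, 4.67 and 4.63 against 4.54, 4.71, 5.04, 4.65 and 4.65. The groups overlapped (exact two-sided permutation p = 0.103), and the other Fastkd2 probe was above background on no array. Among the 12 groups of 5 values checked for a single array far from the rest, 0 passed Dixon's critical value.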

How the results depend on the processing

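Of the 22 alternatives, 20 kept the calls of all 5 factors and 2 kept 4, losing Ptcd3, and 0 changes of the 6 factors reversed. The changes ran from 1.13 to 1.80 for Lrpprc, 0.99 to 1.25 for Tbrg4, 0.89 to 1.38 for Supv3l1, 0.79 to 1.59 for Fastkd1, 0.41 to 0.79 for Ptcd3 and 0.21 to 0.36 for Fastkd5. Without background correction several other genes changed by less: Mrm3 0.59, Tefm 0.60, Mrps27 0.51, Eral1 0.44, Taco1 0.28 and Trmu 0.27. The number of other mitochondrial RNA genes called higher lay between 10 and 15 with 1 array left out, and the number called lower between 0 and 1. Over all tested genes those fits called from 748 (without iPGC-1β replicate 4) to 947 (without wild-type replicate 5) higher. At an adjusted p under 0.10, 1 was lower (Elac2), beside 1077 of all 9365 tested genes. With the enterocyte mean as a covariate 7 were higher and 2 lower, Elac2 and Rexo2 (-0.68, adjusted p = 0.0488). That fit called 766 of all 9365 tested genes higher and 638 lower. That covariate is itself lower on the iPGC-1β arrays, and how much of the group difference it takes up was not tested. Median centring moved the call split over all genes from 925 higher and 694 lower to 745 and 768. Array weights gave 1105 lower, an adjusted p under 0.10 gave 1077, and leaving out 1 array gave 421 (without wild-type replicate 3) to 792. Without any 1 of wild-type replicates 1 to 4 it was at most 458. Dim probes limit Fastkd2, Fastkd3 and Pnpt1. No paired analysis was possible because the replicate numbers only name arrays and pair none across groups.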
